A study of Mus musculus with 12 samples.

Results

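The genes of the ATF4 arm of the integrated stress response were followed in whole mouse kidney after SK-124, a small-molecule inhibitor of the salt-inducible kinases SIK2 and SIK3. The 10 genes were taken by name, through their Ensembl identifiers, from the 55401 gene identifiers of each RSEM table: *Atf4*, *Atf5* and *Ddit3* encode transcription factors, *Trib3*, *Chac1* and *Sesn2* encode stress-induced regulators, *Asns*, *Psat1* and *Phgdh* encode enzymes of amino acid synthesis, and *Vldlr* encodes a lipoprotein receptor. Male C57BL6 mice aged 8 weeks received an intraperitoneal injection of vehicle, which was 15% 2-hydroxypropyl-beta-cyclodextrin (n = 6), or of SK-124 at 40 mg/kg (n = 6), and 1 library was made from the whole kidney of each mouse. The time between injection and RNA isolation is not given for these libraries in the sources used here. No group carried an engineered allele, and the groups shared strain, sex, age and tissue.

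The integrated stress response starts when 1 of 4 kinases phosphorylates the translation factor eIF2, which lowers translation of most mRNAs and raises that of *Atf4*. ATF4 is a bZIP transcription factor that binds composite C/EBP-ATF elements and raises genes for amino acid synthesis and uptake, tRNA charging, redox balance and, when stress persists, cell death. Since much of the control of ATF4 acts on translation, its mRNA level is not a measure of its protein level. *Atf4*, *Atf5* and *Ddit3* lead the program, *Trib3*, *Chac1* and *Sesn2* are among its targets, and *Asns*, *Psat1* and *Phgdh* are its enzymes of asparagine and serine synthesis.

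Because composite elements are the DNA sites by which ATF4 is known to act, the promoters of the 10 genes were searched for them. RefSeq promoter windows on GRCm38.p6, each 300 bases long with 250 bases before the transcript start and 50 from it on, were matched for all 10 genes and gave 13 windows, since *Atf5*, *Psat1* and *Vldlr* have a pair each. The letters TGATGNAA, on either strand, were found in 4 of the 13 windows, those of *Chac1*, *Trib3*, *Asns* and 1 of *Vldlr*, and in 3.97% of all 32851 mouse windows. A related form, TGACGNAA, chosen after the windows had been viewed, was found once, in *Chac1* (1.59% of all windows), and the cAMP response element TGACGTCA was in none of the 13 (1.79% of all windows). A match describes letters and is not evidence of binding. The windows upstream of *Chac1* and *Sesn2* are printed because these genes had the largest fold changes of the 10, and up to the first base of the GENCODE gene. Capitals mark matches to TGATGNAA or TGACGNAA, or to their reverse complement:
*Chac1*, chr2:119350992-119351228, plus strand: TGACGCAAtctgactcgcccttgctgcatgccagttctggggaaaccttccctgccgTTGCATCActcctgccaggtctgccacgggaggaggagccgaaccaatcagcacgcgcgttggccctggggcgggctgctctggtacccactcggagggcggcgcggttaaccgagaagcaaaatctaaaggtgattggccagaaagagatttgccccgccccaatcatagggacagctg
*Sesn2*, chr4:132510502-132510706, minus strand: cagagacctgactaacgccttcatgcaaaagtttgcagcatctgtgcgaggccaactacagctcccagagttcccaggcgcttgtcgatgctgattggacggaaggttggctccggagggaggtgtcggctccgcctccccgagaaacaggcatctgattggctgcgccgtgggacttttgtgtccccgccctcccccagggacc
The stretch of *Chac1* holds TGACGCAA and, 193 bases before the RefSeq start, TGATGCAA on the other strand. The stretch of *Sesn2* holds neither set of letters, which says nothing of sites outside the window. For *Trib3*, *Asns* and *Vldlr*, whose matches lie near or within transcribed sequence, 30 bases around the match are printed for comparison with *Chac1*:
*Trib3*, chr2:152344028-152344057, minus strand: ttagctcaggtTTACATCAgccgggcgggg
*Asns*, chr6:7693214-7693243, minus strand: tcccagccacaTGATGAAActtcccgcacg
*Vldlr*, chr19:27216809-27216838, plus strand: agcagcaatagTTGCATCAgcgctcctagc
*Vldlr* carries the same 8 letters as *Chac1*, TGATGCAA on the other strand, in a noncoding exon of GENCODE M21. The match of *Asns* (TGATGAAA) lies in an annotated UTR exon. That of *Trib3* (TGATGTAA on the other strand) lies just upstream of its GENCODE gene. Placed by the RefSeq starts instead, the matches of *Asns* and *Vldlr* lie 23 and 200 bases before the start. That of *Trib3* begins at position 15 after it.

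The authors' tables give expected counts (RSEM's estimate of the reads of each gene) and TPM, which corrects for gene length and library total. Expected counts totalled 19244227 to 19771802 per mouse. For tests, rounded expected counts were scaled with TMM to CPM, a level relative to library size, and fitted with edgeR's quasi-likelihood test over the 14159 genes that passed its expression filter, with Benjamini-Hochberg adjustment (FDR). The 10 most abundant genes took 44.4% to 46.8% of the counts in SK-124-treated mice 1 to 3, 38.6% to 40.2% in SK-124-treated mice 4 to 6 and 39.9% to 43.2% in vehicle-treated mice. These shares, and no label, set SK-124-treated mice 1 to 3 apart from mice 4 to 6. *Cyp27b1* and *Cyp24a1*, which make and inactivate active vitamin D, served as a check of the treatment, with log2 fold changes of 2.56 (SE 0.22, FDR = 2.35e-07) and -2.32 (SE 0.48, FDR = 0.00154). Proximal tubule markers were abundant (8 of 8 tested, 1 of them lower, *Slc13a3*, with a summed level 8010 to 8970 CPM with vehicle and 7440 to 9360 CPM with SK-124).

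Of the 10 genes, 9 passed the expression filter and 6 of those passed an FDR of 0.05. *Sesn2*, *Chac1*, *Psat1*, *Atf4* and *Atf5* rose and *Vldlr* fell. *Ddit3*, *Asns* and *Phgdh* did not pass the test, and *Trib3* did not pass the filter on low counts. Among the 14159 genes, 10.8% were higher and 13.5% were lower with SK-124, with a median log2 fold change of -0.005. The median over the 9 genes was 0.37. Their fold changes were far from uniform: *Sesn2* and *Chac1* rose by over 3-fold, and the other 3 that rose did so by 1.21-fold to 1.39-fold.

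**Figure D1:**
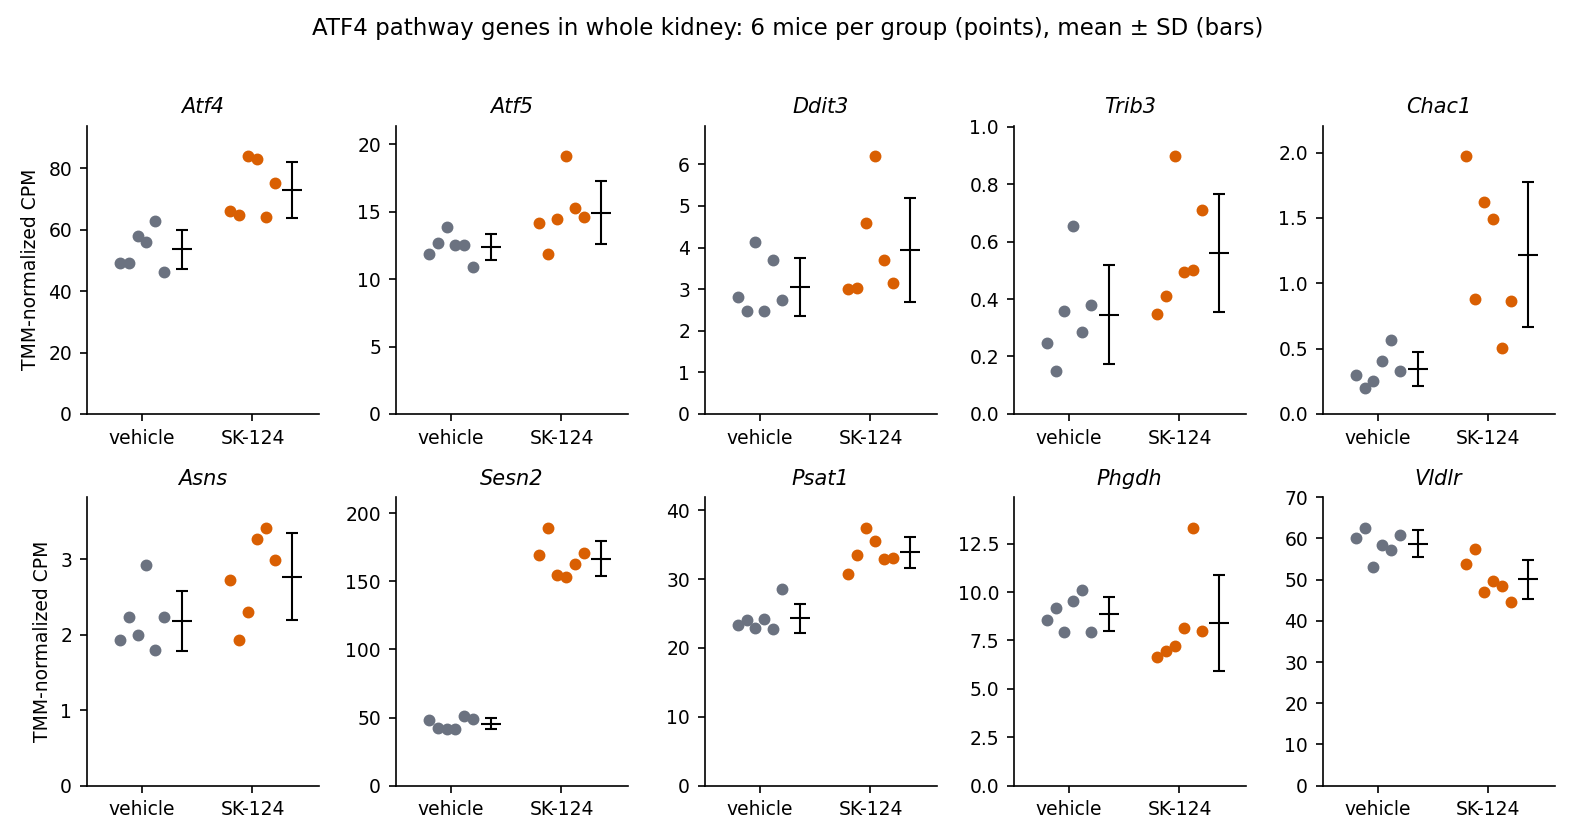
TMM-normalized CPM of the 10 genes in each of the 6 vehicle-treated (grey) and 6 SK-124-treated (orange) mice, with the mean and SD beside the points and every axis starting at 0. On this scale the SK-124-treated mice lie above all vehicle-treated mice for *Atf4*, *Sesn2* and *Psat1*, and the groups overlap for the other 7 genes. Over all genes tested, 6.32% have every SK-124-treated mouse above every vehicle-treated mouse and 6.65% have the reverse. In TPM the groups overlap for *Atf4* and *Psat1* but not for *Sesn2*.

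Among the transcription factors, *Atf4* (ENSMUSG00000042406.8, chromosome 15, 80255184 to 80257541, plus strand, GENCODE M21 on GRCm38) was the most abundant. In vehicle-treated mice the lowest, median and highest values were 46.2, 52.6 and 62.8 CPM, and in SK-124-treated mice 64.1, 70.6 and 83.8 CPM. The groups did not overlap, and SK-124-treated mice 3 and 4 were the highest. This was a log2 fold change of 0.44 (SE 0.09, FDR = 0.00115, edgeR's quasi-likelihood test), and the two-sided exact permutation p on log2(CPM + 0.5) was 0.00216, the smallest that 6 mice against 6 allow. Over all genes tested, 6.32% had every SK-124-treated mouse above every vehicle-treated mouse and 6.65% had the reverse. In TPM the groups overlapped, at 32.2 ± 4.02 with vehicle and 39.7 ± 6.93 with SK-124 (mean ± SD, n = 6 each), and with limma on log2(TPM + 0.1) the difference of 0.29 did not pass (FDR = 0.0879).

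*Atf5* (ENSMUSG00000038539.15, chromosome 7, 44812256 to 44816658, minus strand) encodes a related factor that is also controlled by translation and is known for its part in the mitochondrial stress response. Across mice the lowest, median and highest values were 10.9, 12.5 and 13.9 CPM with vehicle and 11.9, 14.6 and 19.1 CPM with SK-124. In 5 of 6 SK-124-treated mice it lay above every vehicle-treated mouse, and SK-124-treated mouse 2 lay within the vehicle range. In the fit its log2 fold change was 0.27 (SE 0.09, FDR = 0.0413, edgeR). The rise lost its call when any 1 of 9 mice was left out (vehicle-treated mice 1, 2, 4, 5 and 6 and SK-124-treated mice 3, 4, 5 and 6), with log2 fold changes of 0.19 to 0.33 over all 12 such fits, and with library totals in place of TMM (0.17, FDR = 0.3). *Nup62*, whose log2 fold change was 0.01 (FDR = 0.941), and *Il4i1* overlap *Atf5* on the opposite strand, and whether the counting used strand is not given in the sources used here.

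*Ddit3* (ENSMUSG00000025408.15, chromosome 10, 127290774 to 127296288, plus strand) encodes CHOP, the factor linked to cell death in prolonged stress. It was low, with 49 to 125 expected counts per mouse. The 6 vehicle-treated mice had a lowest, median and highest value of 2.47, 2.78 and 4.14 CPM, and those given SK-124 of 3.01, 3.42 and 6.19 CPM. SK-124-treated mice 3 and 4, at 4.59 and 6.19 CPM, were above the vehicle range and the other 4 were within it. With a log2 fold change of 0.37 (SE 0.19, FDR = 0.173, edgeR) it did not pass, and it passed under none of the alternatives run. *Mars*, a tRNA synthetase gene with 379 to 481 expected counts, overlaps it on the opposite strand and had a log2 fold change of 0.21 (FDR = 0.00859, edgeR). Whether reads of *Mars* entered the counts of *Ddit3* was not tested. A second identifier named *Ddit3* (ENSMUSG00000116429.1) was listed at 0 in every mouse and was not used.

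Of the stress-induced regulators, *Sesn2* (ENSMUSG00000028893.8, chromosome 4, 132492032 to 132510501, minus strand) changed most and was the clearest of the 10. It encodes sestrin 2, a leucine-binding protein that restrains mTORC1, and is known as a target of p53 and NRF2 as well as ATF4. It rose from a lowest, median and highest value of 41.3, 45.3 and 50.9 CPM to 153, 166 and 189 CPM. Every SK-124-treated mouse was thus at least at 153 CPM, and none of the vehicle-treated mice was above 50.9 CPM. The log2 fold change was 1.87 (SE 0.07, FDR = 5.97e-12, edgeR; exact permutation p = 0.00216), which is 3.66-fold. It was 1.91 with SK-124-treated mice 1 to 3 and 1.84 with mice 4 to 6, and passed in each of the 25 fits run.

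*Chac1* (ENSMUSG00000027313.3, chromosome 2, 119351229 to 119354381, plus strand), which encodes an enzyme that degrades glutathione, rose by a like amount from a very low level. It had 4 to 12 expected counts per vehicle-treated mouse and 10 to 34 per SK-124-treated mouse. The lowest, median and highest values were 0.198, 0.314 and 0.569 CPM with vehicle and 0.501, 1.18 and 1.97 CPM with SK-124. SK-124-treated mouse 5, at 0.501 CPM, lay below vehicle-treated mouse 5, at 0.569 CPM, and the other 5 SK-124-treated mice were above all vehicle-treated mice. The fit gave a log2 fold change of 1.80 (SE 0.34, FDR = 0.000764, edgeR; exact permutation p = 0.00433). The standard error was thus over 4 times that of *Sesn2*, and the fitted change fell to 0.45 on the log2(TPM + 1) scale, which compresses low values (FDR = 0.00283, limma). A filter of at least 10 counts in every mouse removed the gene.

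*Trib3* (ENSMUSG00000032715.9, chromosome 2, 152337422 to 152344032, minus strand), a pseudokinase that feeds back on ATF4 and CHOP, had 3 to 16 expected counts per mouse. With so few reads the lowest, median and highest values were 0.149, 0.321 and 0.655 CPM with vehicle and 0.347, 0.498 and 0.896 CPM with SK-124. The groups overlapped. Fitted without the filter, its log2 fold change was 0.69 (FDR = 0.222, edgeR). It did not pass the test in any of the 10 fits that kept it.

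Of the enzymes, *Psat1* (ENSMUSG00000024640.9, chromosome 19, 15904678 to 15947337, minus strand), which encodes the aminotransferase step of serine synthesis, rose moderately and evenly. Vehicle-treated and SK-124-treated mice had a lowest, median and highest value of 22.7, 23.7 and 28.5 CPM and of 30.8, 33.3 and 37.4 CPM, respectively. In CPM the groups did not overlap, although vehicle-treated mouse 6 stood above the rest of its group. Treatment raised it by a log2 fold change of 0.48 (SE 0.07, FDR = 3.78e-05, edgeR; exact permutation p = 0.00216), the same with SK-124-treated mice 1 to 3 as with mice 4 to 6, and it passed in each of the 25 fits run. In TPM the groups overlapped, at 9.81 to 13.1 with vehicle and 11.6 to 15.0 with SK-124. The difference was 0.31 on the log2(TPM + 0.1) scale (exact permutation p = 0.0108).

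*Phgdh* (ENSMUSG00000053398.11, chromosome 3, 98313170 to 98339990, minus strand), the first enzyme of the same serine pathway, did not follow *Psat1*. Its lowest, median and highest values were 7.92, 8.85 and 10.1 CPM with vehicle and 6.66, 7.62 and 13.3 CPM with SK-124. SK-124-treated mice 1 to 3, at 6.66 to 7.23 CPM, were below every vehicle-treated mouse, mice 4 and 6 were within the vehicle range, and mouse 5 was above it. Over all mice the log2 fold change was -0.07 (SE 0.14, FDR = 0.759, edgeR). It passed as lower without SK-124-treated mouse 5 (-0.26, FDR = 0.0471) and with SK-124-treated mice 1 to 3 only (-0.35, FDR = 0.0333), and was 0.16 with mice 4 to 6 only. On the log2(TPM + 0.1) scale the difference was -0.40 (FDR = 0.133, limma), beside a median of -0.14 over all genes. In TPM 4 SK-124-treated mice were below every vehicle-treated mouse and 1 was above. *Phgdh* was the only one of the 10 with fractional expected counts, which RSEM gives where reads also map to other genes.

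*Asns* (ENSMUSG00000029752.12, chromosome 6, 7675169 to 7693254, minus strand) encodes asparagine synthetase, a textbook ATF4 target. It was low in kidney, with 33 to 68 expected counts per mouse. Its lowest, median and highest values were 1.80, 2.11 and 2.92 CPM with vehicle and 1.93, 2.86 and 3.41 CPM with SK-124. SK-124-treated mice 4 to 6, at 2.99 to 3.41 CPM, were above every vehicle-treated mouse, and mice 1 to 3, at 1.93 to 2.72 CPM, were within the vehicle range. Over all mice its log2 fold change was 0.35 (SE 0.16, FDR = 0.123, edgeR). It passed with SK-124-treated mice 4 to 6 only (0.57, FDR = 0.0303) and without SK-124-treated mouse 2 (0.43, FDR = 0.0497), and was 0.09 with mice 1 to 3 only.

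*Vldlr* (ENSMUSG00000024924.14, chromosome 19, 27216484 to 27254231, plus strand), which takes up lipoproteins and is regarded as a target of PERK and ATF4 in liver, moved the other way. Its lowest, median and highest values were 53.1, 59.3 and 62.5 CPM with vehicle and 44.5, 49.0 and 57.5 CPM with SK-124. In 4 of 6 SK-124-treated mice it was below every vehicle-treated mouse, and mice 1 and 2 overlapped the vehicle range. The log2 fold change was -0.23 (SE 0.06, FDR = 0.014, edgeR; exact permutation p = 0.0108). It was lower in every fit run and lost its call only with SK-124-treated mice 1 to 3 (-0.15, FDR = 0.214).

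**Figure D2:**
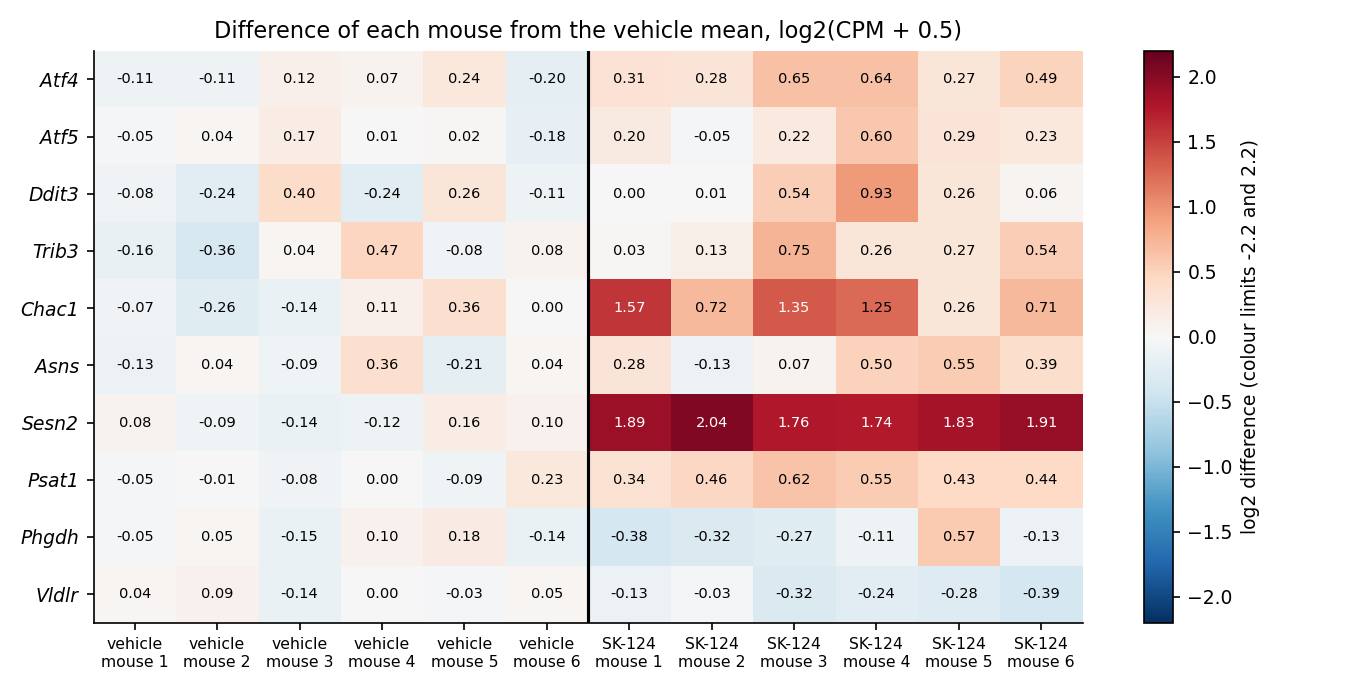
Difference of each mouse from the mean of the vehicle-treated mice on the log2(CPM + 0.5) scale, with genes in rows, mice in columns and a line between the groups. *Sesn2* is higher by 1.74 to 2.04 in all 6 SK-124-treated mice, *Chac1* by 0.26 to 1.57, and among the SK-124-treated mice *Phgdh* is above the vehicle mean only in mouse 5.

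The mice with the highest values differed from gene to gene. SK-124-treated mouse 2 had the highest *Sesn2* (189 CPM) and the lowest *Atf5* (11.9 CPM) and *Asns* (1.93 CPM) of its group. SK-124-treated mouse 4 had the highest *Atf5* and *Ddit3* and the lowest *Sesn2* (153 CPM). For each gene the 20 tested genes with the most similar values were sought, by Pearson r over the 12 mice on log2(CPM + 0.5) after each group's mean was subtracted. None of the 9 genes was among the 20 nearest of another. Of the pathway genes named further on, *Ppp1r15b* was near *Sesn2* (r = 0.881), *Ppp1r15a* near *Ddit3* (r = 0.855) and *Hmox1* near *Phgdh* (r = 0.899), over 12 mice that share library depth and scaling. Whether such neighbours outnumber those that unrelated genes would give was not tested. *Hmox1* and *Phgdh* were both highest in SK-124-treated mouse 5.

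Levels of the genes were compared with each other in TPM. With vehicle, *Atf4* was highest, with a median of 31.0 TPM, followed by *Sesn2* at 12.8, *Psat1* at 10.7, *Vldlr* at 8.91, *Atf5* at 7.06, *Phgdh* at 5.26, *Ddit3* at 3.99, *Asns* at 1.06, *Chac1* at 0.21 and *Trib3* at 0.19 TPM. Neighbours whose ranges over the 6 mice overlapped were *Sesn2* and *Psat1*, *Psat1* and *Vldlr*, *Vldlr* and *Atf5*, *Phgdh* and *Ddit3*, and *Chac1* and *Trib3*. With SK-124, *Sesn2* came first at 41.6 TPM, within the range of *Atf4* at 40.7 TPM, followed by *Psat1* at 14.3 TPM. *Chac1* was at 0.715 TPM, still below *Asns* at 1.34 TPM, with overlapping ranges.

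**Figure D3:**
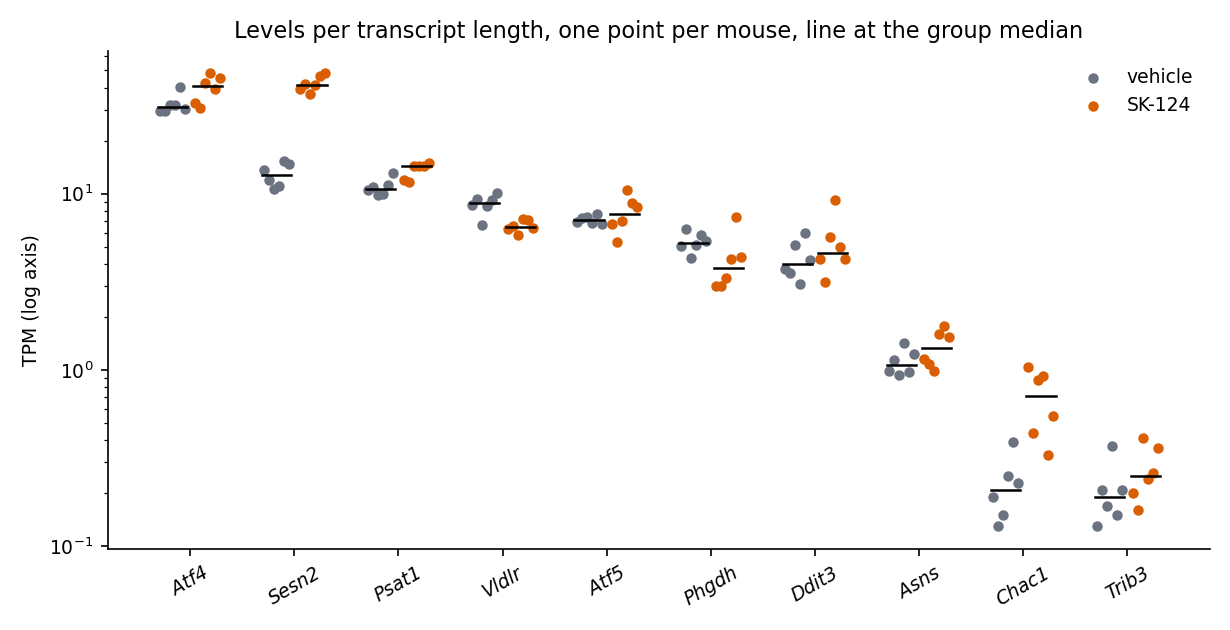
TPM of the 10 genes on a log axis, ordered by the median of the vehicle-treated mice, with 1 point per mouse and a line at each group's median. *Sesn2* moves from 12.8 to 41.6 TPM and lies within the range of *Atf4*.

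The small changes depended on how libraries were scaled. Library totals in place of TMM moved the median over the 14159 genes to -0.12 on the log2 scale, and TPM moved it to -0.11 (pseudocount 1) or -0.14 (pseudocount 0.1). The share of called genes that were higher was 44.5% with TMM, 20.3% with library totals and 19% in TPM. Relative to those medians, *Atf4* was higher by 0.45 with TMM, 0.45 with library totals and 0.43 with log2(TPM + 0.1), and *Atf5* by 0.28, 0.29 and 0.24. *Sesn2*, *Chac1*, *Psat1* and *Vldlr* passed an FDR of 0.05 under each of these scalings, in the directions given above.

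**Figure D4:**
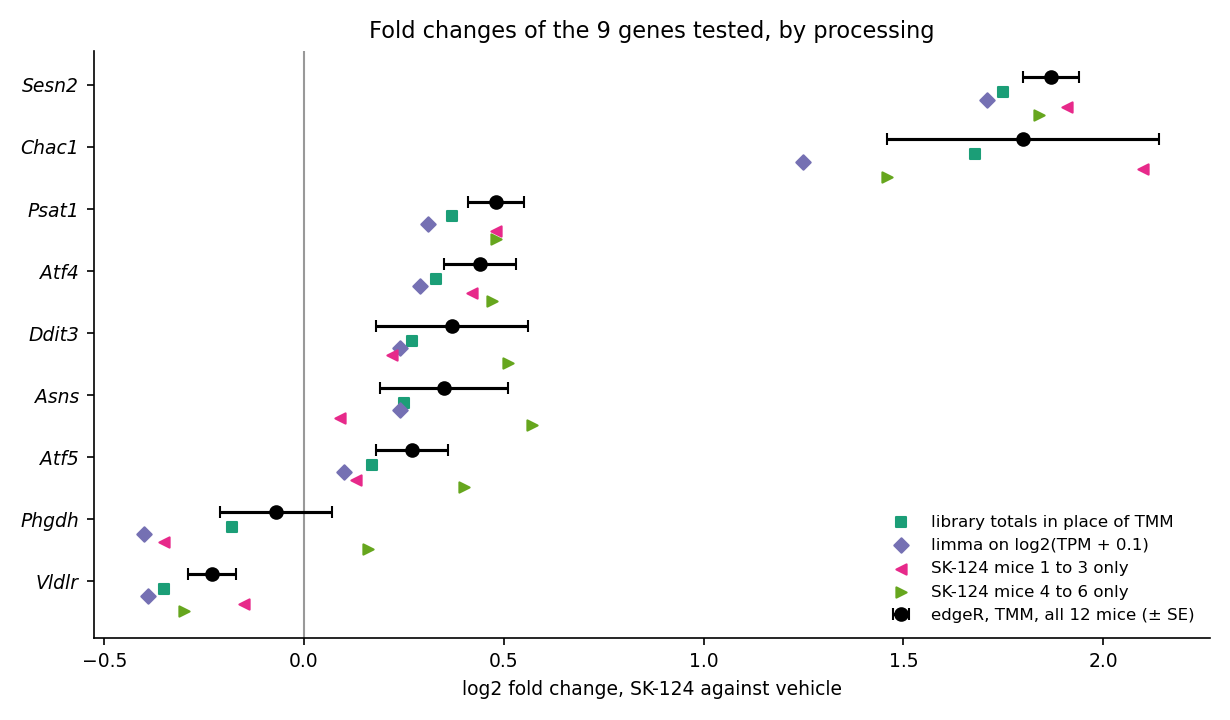
Log2 fold change of the 9 genes tested, SK-124 against vehicle, from edgeR with TMM on all 12 mice (black, with SE) and from 4 other settings. *Sesn2* stays between 1.71 and 1.91 in the settings drawn, *Phgdh* lies on both sides of 0, and *Asns* and *Atf5* are higher with SK-124-treated mice 4 to 6 than with mice 1 to 3.

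The other genes of the pathway were taken from 9 lists, which held 106 genes, of which 102 were tested. Of these, 33 were higher and 10 lower at an FDR under 0.05, with a median log2 fold change of 0.10, beside 10.8% higher, 13.5% lower and a median of -0.005 over all genes. With library totals 20 were higher and 14 lower (median -0.01), beside 777 and 3058 of the 14159 genes (median -0.12). In TPM they numbered 15 and 8, beside 500 and 2130 of all genes with log2(TPM + 1). With SK-124-treated mice 1 to 3 only they numbered 20 and 8, beside 1065 and 1233 of 14512 genes. At the head of the pathway, of the 4 eIF2 kinases only *Eif2ak3*, which encodes PERK, the kinase that senses stress of the endoplasmic reticulum, passed the test (log2 fold change 0.35, SE 0.09, FDR = 0.00767, edgeR). Its values ranged from 12.9 to 21.4 CPM in vehicle-treated mice and from 21.3 to 24.4 CPM in SK-124-treated mice, and it did not pass with library totals, in TPM or with SK-124-treated mice 1 to 3 only. *Eif2ak1* (HRI, the heme-regulated kinase), *Eif2ak2* (PKR, which binds double-stranded RNA) and *Eif2ak4* (GCN2, which senses uncharged tRNA) had log2 fold changes of 0.08, -0.19 and 0.13, none past the test. These are mRNA levels and do not measure kinase activity.

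*Ppp1r15a*, which encodes GADD34, the inducible subunit that directs a phosphatase to eIF2 and is itself an ATF4 target, rose without overlap between the groups (log2 fold change 1.19, SE 0.12, FDR = 9.43e-07, edgeR). Its values ranged from 9.90 to 13.4 CPM with vehicle and from 20.7 to 35.2 CPM with SK-124. Its constitutive counterpart *Ppp1r15b* was at 0.13 (SE 0.06, FDR = 0.125). *Nck1*, an adaptor that recruits phosphatase to eIF2, fell (-0.30, FDR = 0.0244) but not without vehicle-treated mouse 1 or 6 or SK-124-treated mouse 2, and the other 5 regulators of that list did not pass. Of the 10 subunits and partners of eIF2 and eIF2B, 1 passed, *Eif2s2* (0.19, FDR = 0.0494), and it did so in 9 of 25 fits.

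Of 9 bZIP partners of ATF4, 5 were higher and 2 lower. *Atf3* (log2 fold change 4.09, SE 0.54), *Cebpd* (3.76, SE 0.18) and *Cebpb* (2.02, SE 0.13) rose far more than *Atf4* itself and without overlap between the groups. The change of *Atf3* started from a very low level, 0.101 to 0.592 CPM with vehicle, and reached 1.95 to 16.4 CPM with SK-124. *Cebpa*, the C/EBP factor of differentiated cells, fell (-1.05, SE 0.09), and *Nfe2l2* (0.20) and *Crebzf* (-0.19) changed little and passed in 15 of 25 fits each. These genes also respond to many other signals.

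The target genes were mixed by class. A list of 12 tested enzymes held mostly those of serine, one-carbon, proline and transsulfuration metabolism. Of the 12, *Mthfd1l* (1.57, SE 0.33), *Got1* (0.95, SE 0.08) and *Mthfd2* (0.89, SE 0.19) were higher, *Gpt2* (-0.52, SE 0.08) was lower, and 8 did not pass. *Got1* and *Gpt2*, listed with them, encode aminotransferases outside these pathways. *Mthfd1l* and *Mthfd2*, of mitochondrial one-carbon metabolism, were low, at a mean of 0.599 and 1.28 CPM with vehicle. Of 8 tested amino acid transporters, *Slc38a2* (0.98, SE 0.09), *Slc7a5* (0.71, SE 0.17), *Slc7a1* (0.39, SE 0.12) and *Slc3a2* (0.25, SE 0.07) were higher and *Slc1a4* (-0.76, SE 0.13) was lower. In TPM only *Slc38a2* of these 4 passed as higher. Of 14 genes for tRNA charging and export, 6 were higher and 0 lower: *Cars* (0.56), *Eprs* (0.30), *Gars* (0.22), *Mars* (0.21), *Iars* (0.19) and *Aars* (0.18), which charge tRNA with cysteine, glutamate and proline, glycine, methionine, isoleucine and alanine. With library totals 2 of the 14 were higher, in TPM 1, *Cars*, and with SK-124-treated mice 1 to 3 only 2, and none was lower in these fits. Fewer of all genes were higher in those fits too, as given above. *Iars* passed in 11 of 25 fits.

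Of 18 other tested genes regarded as ATF4 targets, 10 were higher and 3 lower. *Ddit4*, which encodes the mTORC1 inhibitor REDD1, had the largest change (4.15, SE 0.12), followed by *Hmox1* (3.39, SE 0.30), the heme oxygenase also driven by NRF2, and *Herpud1* (1.29, SE 0.07), of degradation at the endoplasmic reticulum. *Adm2* (-1.21, SE 0.22), *Stc2* (-0.64, SE 0.14) and *Vegfa* (-0.15, SE 0.05, past the test in 10 of 25 fits) were lower. *Fgf21*, a secreted ATF4 target, had no counts in any mouse. Of 13 chaperones and factors of the ATF6 and XBP1 branches of the unfolded protein response, which is a separate arm, *Dnajb9* was higher (0.66, SE 0.07), *Xbp1* (-0.43, SE 0.08) and *Pdia4* (-0.26, SE 0.07) were lower, and 10 did not pass (median -0.01). Of 6 mitochondrial proteases and chaperones, *Clpx* was higher (0.26, SE 0.08), in 19 of 25 fits.

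**Figure D5:**
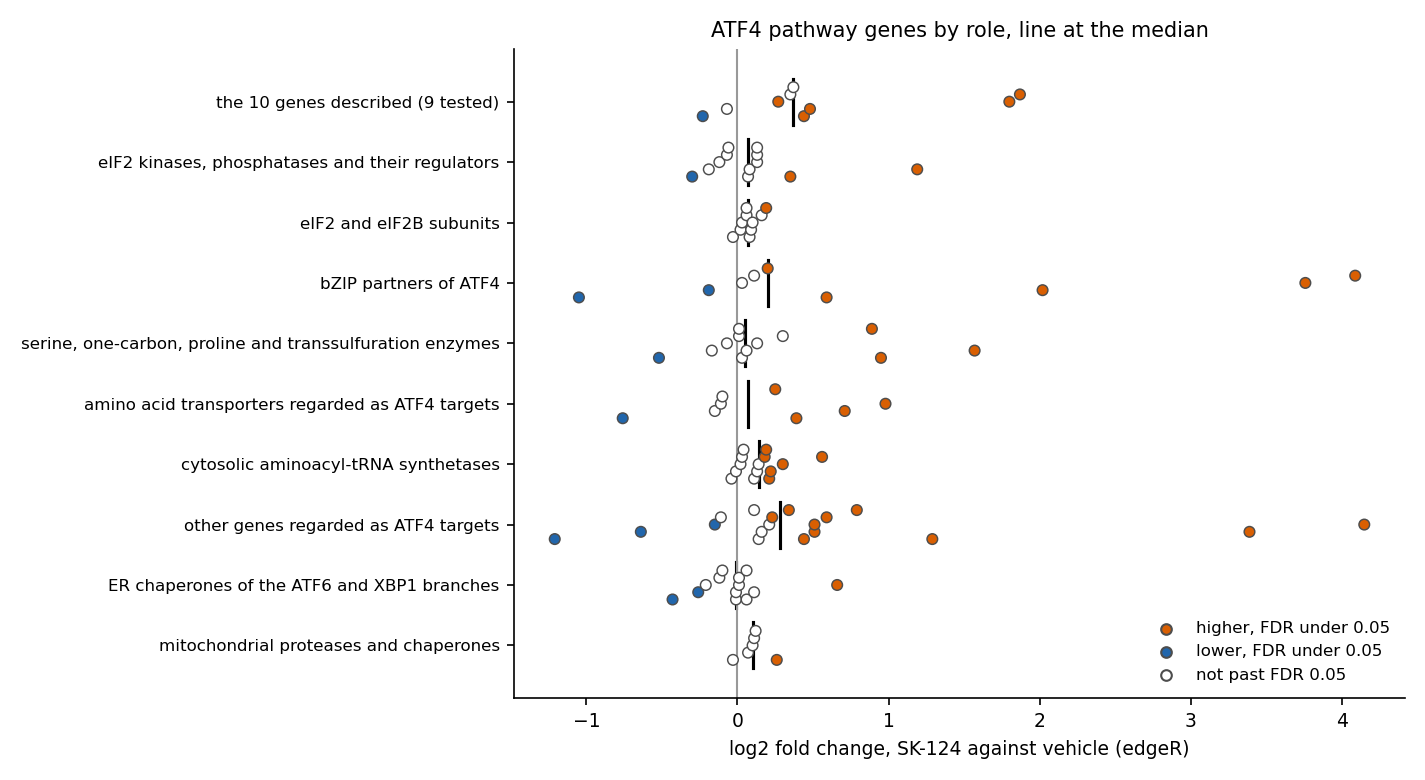
Log2 fold change, SK-124 against vehicle, of the 9 tested genes described and of 102 tested pathway genes in 9 lists by role, filled where the FDR was under 0.05, with a line at each list's median. The tRNA synthetase list (6 calls), the eIF2 and eIF2B list (1 call) and the mitochondrial list (1 call) have calls on the higher side only. The other target list spans -1.21 to 4.15.

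Whole kidney holds many cell types, and fewer cells of a type cannot be told apart from less RNA per cell in such samples. Of 47 tested markers of 9 lists, 3 were higher (6.38%) and 7 lower (14.9%), beside 10.8% and 13.5% of all genes. Those past the test were in proximal tubule (1 of 8 lower), endothelium (1 of 6 lower, *Kdr*), distal nephron (1 of 7 higher, *Aqp2*), fibroblast and smooth muscle (2 lower, 1 higher), macrophage (1 lower, 1 higher) and lymphocyte (2 of 3 tested lower). The lymphocyte markers that were lower were *Cd79a* and *Igkc*. *Ptprc* did not pass (-0.29, FDR = 0.104, edgeR), and *Cd3e* and *Cd3g* were too low to be tested. The summed lymphocyte level was 6.64 to 14.1 CPM with vehicle and 3.61 to 5.62 CPM with SK-124. It includes *Igkc*, whose vehicle values had a mean of 2.27 CPM and a highest value of 7.61 CPM. None passed among 5 erythroid markers, 1 tested adipocyte marker and 4 tested adrenal and liver markers, and the adrenal genes *Cyp11a1*, *Cyp11b1* and *Cyp21a1* were at or near 0. The part of these cell types in the changes of the ATF4 genes was not tested.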

How the data were processed

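RNA-Seq libraries of whole kidney, 6 per treatment, were grouped by their treatment labels. Per the labels, libraries were sequenced on BGISEQ500, and the submitters' processing notes name FastQC, STAR 2.7.2b, RSEM 1.3.0, DESeq2 and mm10. The authors deposited expected counts (estimated reads per gene, not normalized, fractional where reads are shared) and TPM (scaled by RSEM to effective length and library total) for each mouse. FPKM was not used here. Library strand is not given in the sources used here. Of 55401 identifiers, 54349 matched GENCODE M21 with version and 55141 with or without it.

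Expected counts were rounded, filtered (filterByExpr), TMM-scaled and tested with edgeR 4.0.16 (glmQLFTest, no replicate block) in R 4.3.3, with Benjamini-Hochberg adjustment over 14159 genes and an FDR threshold of 0.05. Standard errors (SE) were derived from each log2 fold change and its F statistic. limma 3.58.1 and DESeq2 1.42.0 gave alternatives, with RLE, library totals, other filters, unrounded counts, a replicate block, robust dispersion, only the first or last 3 of the SK-124-treated mice, and each mouse left out. Fits to fewer mice show how far a result depends on single mice, and a call in them does not replace the result over all mice. Exact permutation tests were two-sided, in Python 3.11.15, with pseudocounts of 0.5 (CPM) and 0.1 (TPM). On simulated counts for this comparison, edgeR recovered 93% of 200 genes changed 2-fold among 14159, with 6.06% false calls. Smaller changes, such as those of *Atf4*, *Atf5*, *Psat1* and *Vldlr*, were not simulated, so these rates do not apply to them. Nor was a share of changed genes as large as that called in the data. Libraries of 1 group were compared for duplicates, and the 30 pairs had a chi-square of at least 4.72 per degree of freedom. The biological coefficient of variation was 0.101.

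All 10 genes are named whatever their values, as are the eIF2 kinases, *Ppp1r15a* and *Ppp1r15b*. Of each other list, the 3 largest and 3 smallest log2 fold changes past the FDR are named. The genes and lists were chosen with earlier results of these data known. A further list of cell type markers is not reported here. Promoter sequences are from RefSeq (GRCm38.p6).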

Additional observations from a re-analysis of the deposited data

Results flagged for a closer look

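In 8 of 98 group values of the 49 genes named, 1 mouse lay far from the other 5 of its group, past Dixon's 95% critical value for 6 samples, where chance gives about 4.9. Among the 10 ATF4 genes these were *Psat1* in vehicle-treated mouse 6, at 28.5 CPM where the next mouse had 24.2 CPM, and *Phgdh* in SK-124-treated mouse 5, at 13.3 CPM where the next had 8.17 CPM. SK-124-treated mouse 5 was also apart for *Hmox1* (519 CPM, next 183 CPM) and *Gpt2* (19.0 CPM, next 15.4 CPM). The others were *Eif2ak3* in vehicle-treated mouse 3 (12.9 CPM, the lowest of its group), *Cebpd* in vehicle-treated mouse 5 (6.93 CPM), *Atf3* in vehicle-treated mouse 4 (0.101 CPM, the lowest of its group) and *Adm2* in SK-124-treated mouse 4 (1.73 CPM). No cause was tested for any of these values.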

How the results depend on the processing

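The number of the 10 genes that rose was 5, and it was 3 with limma on log2(TPM + 1) and 3 on log2(TPM + 0.1), which lost *Atf4* and *Atf5*. The number that fell was 1 in each alternative other than leaving out mice, where it was 1 to 2; the gene was *Vldlr*, but *Phgdh* in its place with SK-124-treated mice 1 to 3 only. Leaving out each mouse in turn gave 4 to 6 genes higher, 29 to 35 pathway genes higher and 7 to 12 lower, and 2960 to 3942 genes called in all. Pathway genes higher numbered 33, against 20 with library totals, 15 with log2(TPM + 1), 15 with log2(TPM + 0.1) and 20 with SK-124-treated mice 1 to 3 only, and all called genes numbered 3453 against 2298 with those 3 mice, a comparison with fewer samples. Over all genes tested, 1536 were higher, against 777, 500, 498 and 1065 in the same order of settings. The cause of the other shifts was not tested. No gene passed in one direction in one fit and in the opposite direction in another among the 10. Across the 25 fits, main one included, *Sesn2* and *Psat1* passed in 25, *Chac1* in the 24 that tested it, *Vldlr* in 24, *Atf4* in 23 and *Atf5* in 12. With the replicate block 5 of the 10 genes were higher and 1 lower, 34 pathway genes higher and 11 lower, and 3466 genes called in all. Replicate numbers belong to different mice, and the deviations of same-numbered mice correlated at -0.13 to 0.22. Whether same-numbered mice shared handling was not tested. In 2 of 6 cases a mouse was most like its own number.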
